A study of Mus musculus with 2 samples.

Results

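The genes described here are 32 mouse genes of glycolysis and of the response to low oxygen, chosen by name from the 31253 features of the count tables. They are 15 glycolysis genes (the glucose transporter Slc2a1, the lactate exporter Slc16a3 and 13 genes of the enzymes between them), 16 genes known as hypoxia targets, and Hif1a, which encodes the oxygen-sensitive subunit of the transcription factor HIF-1. They were followed in immune cells from B16 melanoma tumors in wild-type mice. The mice were first vaccinated under the skin of 1 flank with irradiated B16-GM-CSF cells, which secrete a cytokine that recruits myeloid cells. The other flank received B16 cells 12 days later, with a short hairpin RNA either against Sdc1, the gene of the surface proteoglycan syndecan-1 (shSdc1), or against RFP as the control (shRFP). Tumors were taken after another 16 days, 6 per group were pooled and digested, and live CD45+ cells were sorted and run as 1 library per group with 10x Genomics 3′ chemistry (version 3.1). The genotype field names the shSdc1 sample a knock out, but its title and the growth protocol give a hairpin. The hairpin was carried by the tumor cells, and the sorted cells came from the host.

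Glycolysis splits glucose into pyruvate in the cytosol and yields ATP without oxygen. With enough oxygen, prolyl hydroxylases of the EGLN family mark HIF-1α protein for destruction; when oxygen falls, the protein accumulates and the HIF complex raises transcription of glucose transporters, most glycolytic enzymes and a wider set of targets for blood vessel growth, mitophagy and lipid storage. Macrophages and T cells also turn glycolysis up on activation in normal oxygen, and the HIF-1α protein is set mainly after transcription, so the Hif1a transcript does not measure it.

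The 4983 cells kept from the shRFP tumors held 3850273 unique molecular identifiers (UMIs, each 1 counted mRNA molecule), and the 5313 cells kept from the shSdc1 tumors held 4014132, with a median of 650 and 593 per cell. A level below is a gene's share of all UMIs of the summed cells, scaled to 1000000 and written CPM. Brackets give 95% intervals that cover counting error only. With 1 library of pooled tumors per group, no difference between the groups could be tested, and the spread between mice or tumors is unknown. A gene is called higher or lower at a 1.5-fold difference in CPM, if it had at least 20 UMIs in both libraries together. Cell groups are clusters made without the 32 genes and without 26 further glycolysis and 38 further hypoxia genes. Of 18 clusters, 7 were monocyte/macrophage-like (2897 and 2397 cells) and 3 T-like (1069 and 1740 cells). The libraries shared 20 barcode sequences. Sdc1 itself had 102 and 76 UMIs in these host cells, which does not measure the hairpin.

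HIF binds DNA at a short core that reads ACGTG or GCGTG, and ACGTG also occurs inside the E-box CACGTG read by MYC-type factors. The 250 bases before the start sites were read on both strands from RefSeq promoters (build GRCm38.p6), which were matched for 30 of the 32 genes. A core stood in at least 1 promoter of 27 of these 30 genes, in 13 of 15 glycolysis genes and in 13 of 14 hypoxia targets, against 41.5% of all 27025 genes of the table. The members' promoters were also richer in G and C, with a median of 62.8% against 52.4%, and a GC-rich sequence holds such letters more often. All 10 genes that were lower in shSdc1 macrophages by the measure given further on hold a core in at least 1 promoter. With 27 of 30 members holding one, this does not set them apart. The promoter of Hif1a, 1 of the 10, did not match an annotated transcript start. Shown are the 6 of these 10 genes with the lowest macrophage ratios among those that met the next rule. Their promoter fits an annotated start and has a core in a stretch of at least 60 bases outside annotated exons. Where a gene had several promoters, 1 with a core was chosen. Each is printed 5′ to 3′ on its own strand, with the cores in capitals on either strand.
Egln3: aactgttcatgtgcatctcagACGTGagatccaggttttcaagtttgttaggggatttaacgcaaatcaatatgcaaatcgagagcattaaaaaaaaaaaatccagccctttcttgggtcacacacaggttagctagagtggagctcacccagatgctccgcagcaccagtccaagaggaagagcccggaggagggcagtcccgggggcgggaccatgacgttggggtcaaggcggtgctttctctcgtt
Ero1l: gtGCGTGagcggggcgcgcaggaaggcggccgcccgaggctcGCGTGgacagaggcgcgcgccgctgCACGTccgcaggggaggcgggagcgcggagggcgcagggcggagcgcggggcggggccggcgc
Mxi1: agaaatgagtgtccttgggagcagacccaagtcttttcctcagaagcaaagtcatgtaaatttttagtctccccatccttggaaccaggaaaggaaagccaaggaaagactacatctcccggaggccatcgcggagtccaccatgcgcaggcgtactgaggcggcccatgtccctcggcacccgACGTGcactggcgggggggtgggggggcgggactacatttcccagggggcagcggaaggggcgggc
Ankrd37: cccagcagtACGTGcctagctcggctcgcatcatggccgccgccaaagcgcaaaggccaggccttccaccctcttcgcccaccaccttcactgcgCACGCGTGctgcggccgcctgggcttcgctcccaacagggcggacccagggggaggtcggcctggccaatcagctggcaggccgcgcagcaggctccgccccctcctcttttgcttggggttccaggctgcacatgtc
Slc2a1: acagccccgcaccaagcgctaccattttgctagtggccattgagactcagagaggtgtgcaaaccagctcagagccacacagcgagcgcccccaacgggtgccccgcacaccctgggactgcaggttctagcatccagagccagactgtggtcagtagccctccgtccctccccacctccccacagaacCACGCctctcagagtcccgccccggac
Eno1: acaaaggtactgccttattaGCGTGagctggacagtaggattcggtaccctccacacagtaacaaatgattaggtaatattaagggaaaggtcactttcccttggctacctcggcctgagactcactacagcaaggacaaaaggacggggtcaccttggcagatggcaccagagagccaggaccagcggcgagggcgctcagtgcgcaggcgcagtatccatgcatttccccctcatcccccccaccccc
They lie at chr12:54203875-54204124 (Egln3, minus strand), chr14:45318573-45318702 (Ero1l, minus), chr19:53329163-53329412 (Mxi1, plus), chr8:45999868-46000100 (Ankrd37, minus), chr4:119108495-119108710 (Slc2a1, plus) and chr4:150236458-150236707 (Eno1, plus). The stretches of Ero1l, Ankrd37 and Slc2a1 were shortened to leave out annotated exons. Ero1l and Ankrd37 each show 3 cores, and the other 4 genes 1 each. The Mxi1 stretch lies inside the gene, which begins at 53310518. The promoter at that first start (chr19:53310256-53310505) holds 0 cores. The matches are letters only, and no binding was measured.

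Summed over each class, both lists stood higher in monocyte/macrophage-like cells than in T-like cells, and the hypoxia targets by more. In the shRFP library the 15 glycolysis genes summed to 15460 CPM in macrophages and 9879 CPM in T-like cells, a ratio of 1.56 [1.52 to 1.61]. In the shSdc1 library these sums were 11689 and 9501 CPM, a ratio of 1.23 [1.2 to 1.26]. The 16 hypoxia targets were 2.76-fold [2.55 to 2.99] and 2.26-fold [2.12 to 2.42] higher in macrophages. Counting intervals of the ratio of macrophages to T-like cells stood above 1 in both libraries for 12 of the 16 hypoxia targets and for 9 of the 15 glycolysis genes. Not every macrophage cluster followed. In shSdc1 the clusters led by Ccl8 and by Hp held 8197 and 8964 CPM of glycolysis genes, below the T-like sum. Hypoxia targets of the Ccl8 cluster, 1187 and 1091 CPM, lay near the T-like 1206 and 1056 CPM. The other macrophage clusters stood above the T-like sums of both lists in both libraries. T-like subsets also differed, as given further on.

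Several targets outside the glycolytic chain separated the classes widely. Vegfa, the growth factor for blood vessels, had 591 and 356 UMIs in macrophages and only 4 and 2 in T-like cells, a ratio of 34.4 [13.4 to 127] in shRFP and 97.8 [26.9 to 810] in shSdc1. Adm was next, at 13.5 [2.33 to 542] and 24.7 [4.22 to 998], on 1 T-like UMI in each library. Adam8, a surface protease of myeloid cells, was 9.71-fold and 11.5-fold higher in macrophages. Ndrg1, a stress-response gene, was 7.30-fold and 5.72-fold higher, and the mitophagy receptor Bnip3 5.70-fold and 4.04-fold. Among the glycolysis genes the transporter Slc2a1 (4.86-fold and 2.84-fold), Hk2, which phosphorylates glucose (9.54-fold and 4.15-fold), and Slc16a3 (3.44-fold and 2.54-fold) showed the widest gaps.

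Only 2 of the 32 genes, Ddit4 and Hif1a, were lower in macrophages than in T-like cells with intervals below 1 in both libraries. In shSdc1 alone this also held for Hk1 (0.476 [0.352 to 0.644]), Pfkp (0.507 [0.417 to 0.616]), Bnip3l (0.814 [0.673 to 0.986]) and Ldha (0.888 [0.825 to 0.955]). In shRFP, Ldha was higher in macrophages (1.21 [1.11 to 1.32]), and the intervals of the other 3 included 1. Ddit4, an inhibitor of the kinase complex mTORC1, stood at 33.5 and 27.3 CPM in macrophages against 190 and 148 CPM in T-like cells, a ratio of 0.176 [0.130 to 0.237] and 0.184 [0.132 to 0.253]. Hif1a stood at 238 and 113 CPM in macrophages against 375 and 473 CPM in T-like cells, a ratio of 0.635 [0.541 to 0.747] and 0.238 [0.202 to 0.280]. As whole classes, the Hif1a transcript was thus lower where the summed hypoxia targets were higher. Below class level this was less uniform. In shRFP, CD8-like T cells held 240 CPM of Hif1a, near the macrophage level, and naive-like T cells 150 CPM, below it. In shSdc1 every named T subset stood above macrophages. Within macrophages, Hif1a was higher in cells with more hypoxia target UMIs, as given further on.

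**Figure D1:**
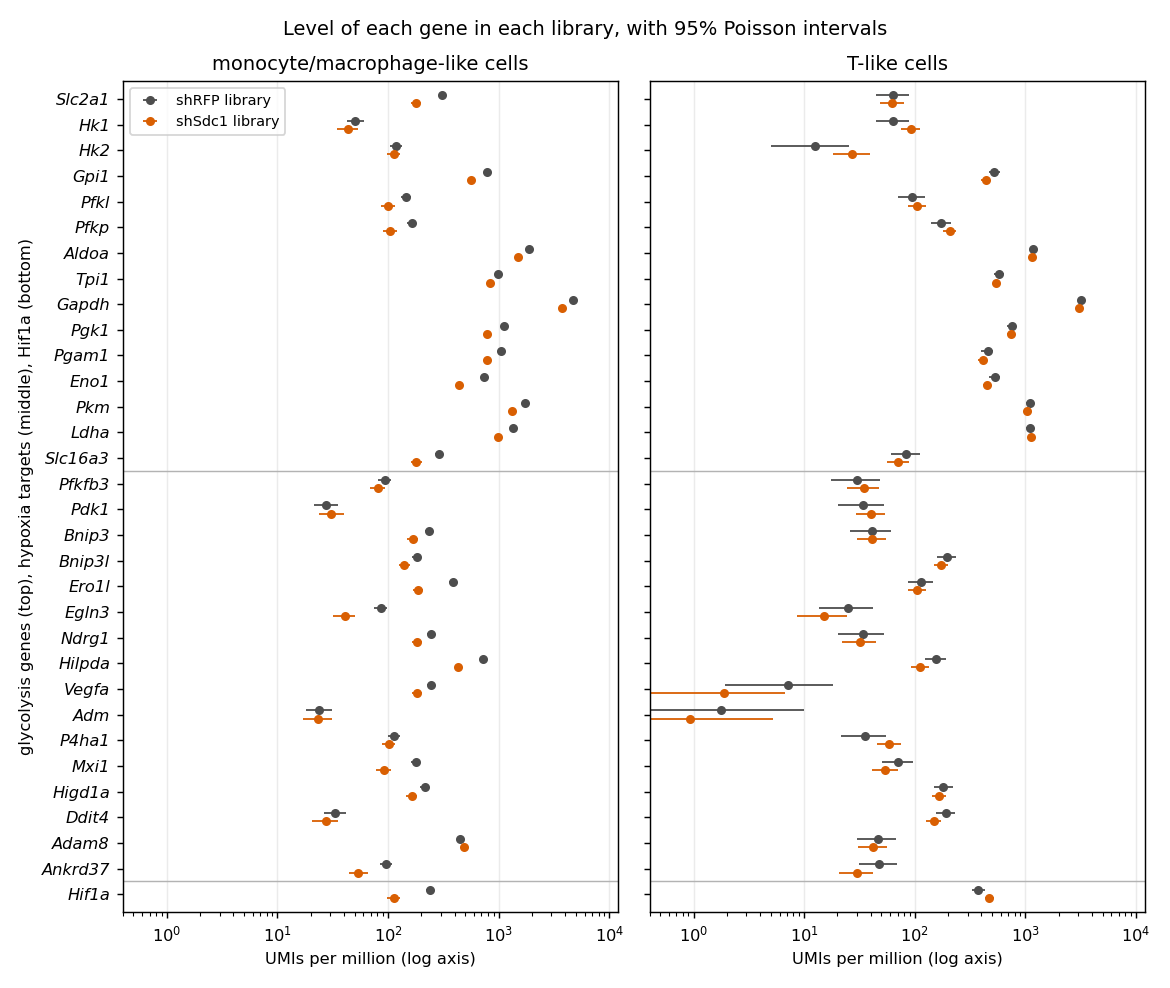
Level of each gene in CPM (log axis) in monocyte/macrophage-like cells (left) and T-like cells (right) of the shRFP library (grey) and the shSdc1 library (orange), with 95% Poisson intervals. In macrophages the orange points lie left of the grey ones for all 15 glycolysis genes and 14 of 16 hypoxia targets, while in T-like cells most pairs overlap; Vegfa and Adm are near 0 in T-like cells.

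Over all cells both lists were lower in the shSdc1 library, the hypoxia targets by more. The glycolysis genes went from 13261 CPM [13146 to 13376] in shRFP to 9958 CPM [9860 to 10056] in shSdc1, a ratio of 0.751 [0.741 to 0.761]. The hypoxia targets went from 2542 CPM [2492 to 2593] to 1699 CPM [1659 to 1740], a ratio of 0.668 [0.648 to 0.689]. Before doublets were removed, in the 5225 and 5576 barcodes of the selection rule, the ratios were 0.756 and 0.671. At the 1.5-fold mark 11 of the 32 genes were lower and 0 higher, where 5.90% of all 10712 measured genes were lower and 15.3% higher. The lower genes were Slc2a1, Eno1 and Slc16a3 among the glycolysis genes and 8 of 16 hypoxia targets, led by Egln3 (0.416), Ero1l (0.493) and Hilpda (0.512). The mix of cells differs between the libraries, so the classes are described one by one.

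In monocyte/macrophage-like cells the glycolytic chain was lower in shSdc1 from the import of glucose to the export of lactate. The sum went from 15460 CPM [15303 to 15617] to 11689 CPM [11538 to 11842], a ratio of 0.756 [0.744 to 0.769]. All 15 genes had a ratio below 1, 13 of them with an interval below 1, and 4 passed the 1.5-fold mark. Slc2a1, which lets glucose into the cell (mm10 chromosome 4, 119108711 to 119137983, plus strand), went from 311 to 178 CPM, a ratio of 0.574 [0.504 to 0.652]. After each cell was thinned to 500 UMIs, 14.5% [13.1 to 16.0] of 2244 shRFP macrophages and 7.26% [6.05 to 8.63] of 1639 shSdc1 macrophages held a Slc2a1 UMI. The shares without thinning were 19.2% and 11.3%, at median depths of 713 and 662 UMIs. In thinned T-like cells the shares were 3.25% [1.64 to 5.75] of 338 and 2.77% [1.70 to 4.25] of 721 cells. Cells with under 500 UMIs were dropped, so these are the deeper ones of 1069 and 1740 T-like cells, with class medians of 394 and 436 UMIs.

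The early enzymes of the pathway differed in size of ratio. Pfkp, a phosphofructokinase of the first committed step, was at 164 and 105 CPM, a ratio of 0.641 [0.539 to 0.761], and its sister gene Pfkl at 145 and 99.8 CPM, a ratio of 0.688 [0.574 to 0.822]. The hexokinases, which trap glucose in the cell, had the ratios nearest to 1, with Hk2 at 119 and 113 CPM (0.95 [0.793 to 1.14]) and Hk1 at 50.8 and 43.7 CPM (0.860 [0.645 to 1.14]). Both hexokinase intervals include 1.

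In the lower chain, Eno1, the enolase that makes phosphoenolpyruvate (chromosome 4, 150236721 to 150248879, plus strand), had the lowest ratio, from 738 to 439 CPM, a ratio of 0.595 [0.548 to 0.646]. Its near copy Eno1b is a separate feature and went from 257 to 186 CPM in these cells (0.724), and reads the 2 copies share cannot be assigned with certainty. Gapdh, which makes NADH and is often used as a reference gene, went from 4748 to 3759 CPM, a ratio of 0.792 [0.769 to 0.815]. Ldha, which turns pyruvate into lactate, went from 1338 to 990 CPM (0.740 [0.699 to 0.783]), and the last enzyme of the chain, Pkm, from 1719 to 1327 CPM (0.772 [0.735 to 0.811]). Slc16a3, which carries lactate out, went from 287 to 181 CPM, a ratio of 0.630 [0.552 to 0.717]. The other 5 enzymes, Gpi1, Aldoa, Tpi1, Pgk1 and Pgam1, had ratios from 0.705 to 0.837. Several of these genes have processed pseudogenes elsewhere in the genome, and the sources used here do not say how reads that match both were counted.

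Hypoxia targets in macrophages went from 3332 CPM [3260 to 3406] to 2391 CPM [2323 to 2461], a ratio of 0.718 [0.692 to 0.744]. Of 16 targets, 14 had a ratio below 1, 10 with an interval below 1, and 5 passed the 1.5-fold mark. The lowest ratios were in feedback and protein-folding genes. Egln3, a prolyl hydroxylase that HIF induces and that acts back on it (chromosome 12, 54178981 to 54203860, minus strand), went from 85.9 to 40.6 CPM, a ratio of 0.473 [0.360 to 0.616]. Ero1l, an oxidase that forms disulfide bonds in the endoplasmic reticulum, went from 383 to 188 CPM, a ratio of 0.490 [0.433 to 0.553].

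Mxi1, an antagonist of MYC, went from 178 to 91.5 CPM (0.514 [0.429 to 0.614]) and Ankrd37, a small ankyrin-repeat protein, from 95.8 to 54.0 CPM (0.564 [0.443 to 0.713]). Hilpda, which blocks the breakdown of lipid droplets (chromosome 6, 29272488 to 29275446, plus strand), went from 728 to 433 CPM, a ratio of 0.595 [0.547 to 0.646]. A Hilpda UMI was found in 23.3% and 14.9% of thinned macrophages (29.4% and 19% without thinning) and in 5.33% and 4.58% of the 338 and 721 thinned T-like cells.

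The mitochondrial and vascular targets stayed within 1.5-fold. Ratios were 0.715 [0.622 to 0.821] for Bnip3 and 0.772 [0.661 to 0.899] for its relative Bnip3l, both mitophagy receptors, and 0.764 [0.662 to 0.880] for Higd1a, a small protein of the inner mitochondrial membrane. Ndrg1 was at 0.740 [0.647 to 0.845] and Vegfa at 0.75 [0.656 to 0.857].

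A few targets did not follow. Pdk1, the kinase that keeps pyruvate out of mitochondria, stood at 27.7 and 30.9 CPM, a ratio of 1.11 [0.774 to 1.60], and Adam8 at 448 and 484 CPM, a ratio of 1.08 [0.990 to 1.18]. Pfkfb3, which makes the activator of phosphofructokinase (0.861 [0.698 to 1.06]), P4ha1, a collagen prolyl hydroxylase (0.895 [0.742 to 1.08]), the vasodilator peptide Adm (0.966 [0.640 to 1.45]) and Ddit4 (0.815 [0.565 to 1.17]) also had intervals that include 1. Adm, Pdk1 and Ddit4 rested on at most 81 UMIs per library in these cells.

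Hif1a (chromosome 12, 73901375 to 73947530, plus strand) went from 238 CPM [219 to 258] to 113 CPM [98.2 to 129] in macrophages, a ratio of 0.473 [0.403 to 0.554]. Counting all 32 genes, 10 were past the 1.5-fold mark downward in macrophages and 0 upward, where 9.04% of 9217 measured genes were lower and 14.7% higher. The median log2 ratio was -0.43 for the glycolysis genes and -0.40 for the hypoxia targets, against 0.08 for all genes. The medians of the 2 lists lay close together in this class.

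**Figure D2:**
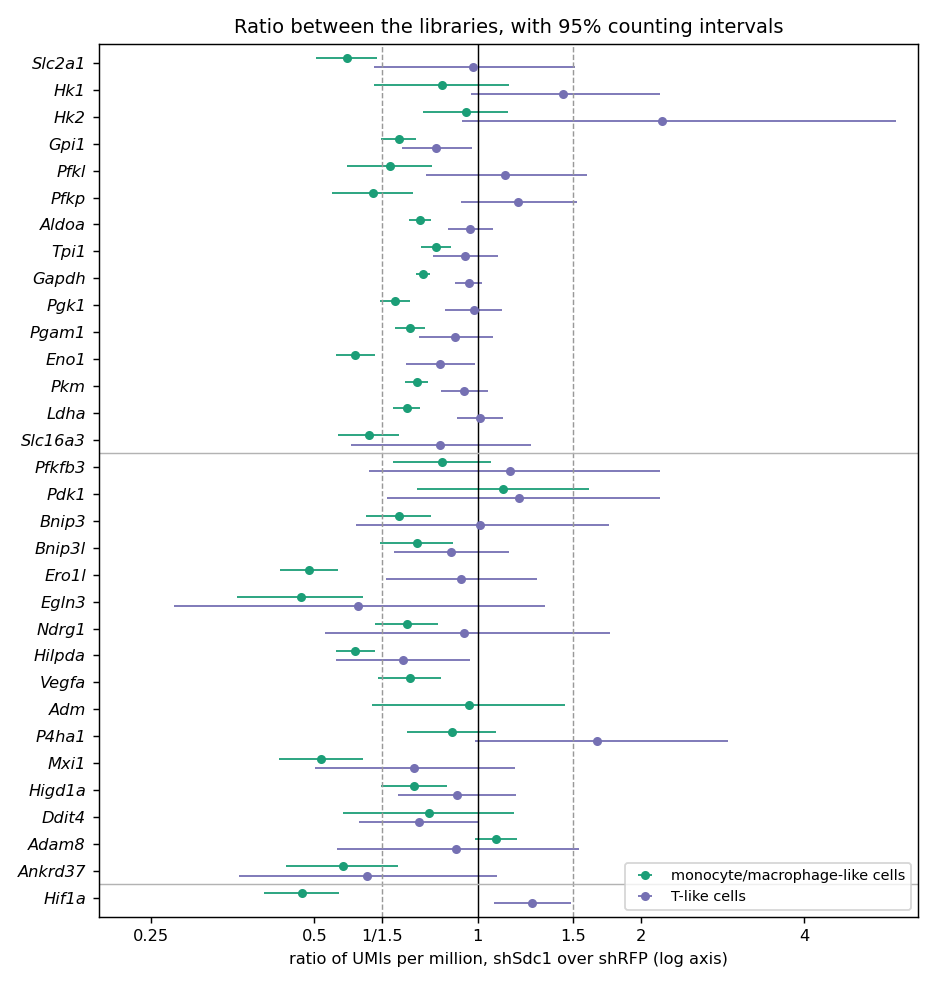
Ratio of CPM, shSdc1 over shRFP (log axis), of each gene in monocyte/macrophage-like cells (green) and T-like cells (purple), with 95% counting intervals; dashed lines mark 1.5-fold either way, and genes with under 20 UMIs in a class are left out. Green points lie below 1 for 30 of the 32 genes, with Hif1a, Egln3, Ero1l and Mxi1 farthest out, and purple points scatter around 1.

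Other genes of the same pathways, listed by function, were counted in macrophages in the same way. Of 31 measured other hypoxia genes, 4 were lower and 4 higher, where 9.04% of all 9217 measured genes were lower and 14.7% higher. The whole list summed to a ratio of 0.972 [0.952 to 0.993], while the median log2 ratio of its measured genes was -0.21, against 0.08 for all genes. The genes named next passed the mark and were picked after their values were seen. The lower ones were Pgf, a vascular growth factor of the VEGF family (0.356 [0.205 to 0.592]), the transcription repressor Bhlhe40 (0.494 [0.429 to 0.568]), Vhl, whose protein marks HIF-1α for destruction (0.534 [0.336 to 0.829]), and the adenylate kinase Ak4 (0.646 [0.394 to 1.04]). Among those higher were the histone demethylase Kdm4b (1.90 [1.06 to 3.46]), the collagen hydroxylase Plod1 (1.78 [1.42 to 2.24]) and the creatine transporter Slc6a8 (1.59 [1.21 to 2.09]). Of 17 measured other glycolysis genes, 1 was higher (Pfkfb4, 1.68 [1.10 to 2.60]) and 5 were lower, Slc2a3, Slc2a6, Aldoc, Eno3 and Gpd2. The whole list of other glycolysis genes summed to a ratio of 0.947 [0.886 to 1.01], and the median log2 ratio of its measured genes was -0.16. Respiratory chain and ATP synthase genes summed to 4947 CPM in shRFP and 5450 CPM in shSdc1, a ratio of 1.10 [1.07 to 1.13], with 0 of 16 past 1.5-fold either way.

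Genes that rise when tissue is warmed and digested moved with the same contrast. The 14 stress genes (immediate early and heat shock genes) summed to 11850 CPM in shRFP macrophages and 6661 CPM in shSdc1 macrophages, a ratio of 0.562 [0.551 to 0.574], and 10 of the 14 were lower, among them Hspa1a (0.410), Hspa1b (0.428) and Nr4a1 (0.428). In T-like cells the stress genes were also lower (0.692 [0.659 to 0.727]). The glycolysis genes were at 0.962 there, a sum over subsets that differed in both directions, and in regulatory-like T cells both lists were lower. The part of the stress genes in the macrophage result was not tested. Of markers of cells outside the sort, melanoma genes (7 of 8 detected) were at 57.4 and 106 CPM in macrophages, and red cell genes had 0 UMIs in both libraries. T cell markers, of a class inside the sort, were at 90.5 and 120 CPM there (23 of 23 detected).

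The monocyte/macrophage-like class was made up differently in the 2 libraries, and its clusters differed widely in these genes. They are named here by their leading genes. Ccl8/C1qa cells, with complement genes, were 19.4% [18 to 20.9] of the class in shRFP and 53.4% [51.4 to 55.4] in shSdc1. Il1a/Serpinb2 cells, with inflammatory genes, went from 18.8% [17.4 to 20.3] to 4.88% [4.05 to 5.82], and Hp/Chil3 cells, with monocyte genes, from 21.6% [20.1 to 23.2] to 5.13% [4.28 to 6.09]. Id1/Hsp90aa1 cells, which are also led by the heat shock genes Hspb1, Hspa1b, Hspa1a and Hsph1, went from 11.7% [10.5 to 12.9] to 2.80% [2.17 to 3.54]. Mmp13/Ctsk cells, with matrix-degrading enzymes, were 12.7% and 12.8%, Gdf15/Ccl12 cells 11.4% and 15.6%, and interferon-responsive Ifit3/Rsad2 cells 4.35% and 5.47%.

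Hypoxia targets were lowest in the cluster that filled the shSdc1 class. Ccl8/C1qa cells held 1187 CPM of hypoxia targets in shRFP and 1091 CPM in shSdc1. Mmp13/Ctsk cells held 7657 and 5965 CPM, Id1/Hsp90aa1 cells 4806 and 6460 CPM, and Il1a/Serpinb2 cells 4523 and 4615 CPM. Between the lowest and the highest of the 7 clusters the hypoxia targets differed 6.45-fold in shRFP and 5.92-fold in shSdc1, and the glycolysis genes 2.38-fold and 2.53-fold. Single members varied on both sides of these spans. Among targets, Hilpda spanned 20.9-fold and 21.9-fold, and Adam8 2.41-fold and 2.73-fold. Among glycolysis genes, Slc2a1 spanned 8.24-fold and 6.99-fold, and Pkm 1.67-fold and 2.14-fold.

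Within clusters the hypoxia targets had no common direction between the libraries, while the glycolysis genes mostly did. The hypoxia ratio, shSdc1 over shRFP, was 0.716 [0.619 to 0.828] in Ifit3/Rsad2 cells, 0.779 [0.725 to 0.837] in Mmp13/Ctsk cells, 0.919 [0.833 to 1.01] in Ccl8/C1qa cells and 1.02 [0.925 to 1.12] in Il1a/Serpinb2 cells. It was 1.27 [1.16 to 1.40] in Gdf15/Ccl12 cells, 1.27 [1.06 to 1.52] in Hp/Chil3 cells and 1.34 [1.18 to 1.52] in Id1/Hsp90aa1 cells. The glycolysis ratio was below 1 with its interval in 6 of 7 clusters, from 0.703 [0.655 to 0.755] in Ifit3/Rsad2 cells and 0.728 [0.704 to 0.752] in Ccl8/C1qa cells to 0.916 [0.871 to 0.964] in Il1a/Serpinb2 cells, and it was 1.04 [1.003 to 1.082] in Gdf15/Ccl12 cells, above 1. The stress genes were also below 1 with their interval in 6 of 7 clusters, from 0.570 [0.546 to 0.596] in Ccl8/C1qa cells to 0.949 [0.903 to 0.998] in Gdf15/Ccl12 cells, and at 1.003 in Il1a/Serpinb2 cells; their part in the glycolysis ratios was not tested.

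When the 7 clusters were given equal weight in both libraries (each cluster's mean share of UMIs), the hypoxia ratio of the class moved from 0.718 to 0.998 and the glycolysis ratio from 0.756 to 0.854. None of the 10 genes lower by 1.5-fold in the class stayed past that mark, and 13 of 15 glycolysis genes and 9 of 16 hypoxia targets kept a ratio below 1. The 2 lists, alike in the class as a whole, parted at this level of detail.

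**Figure D3:**
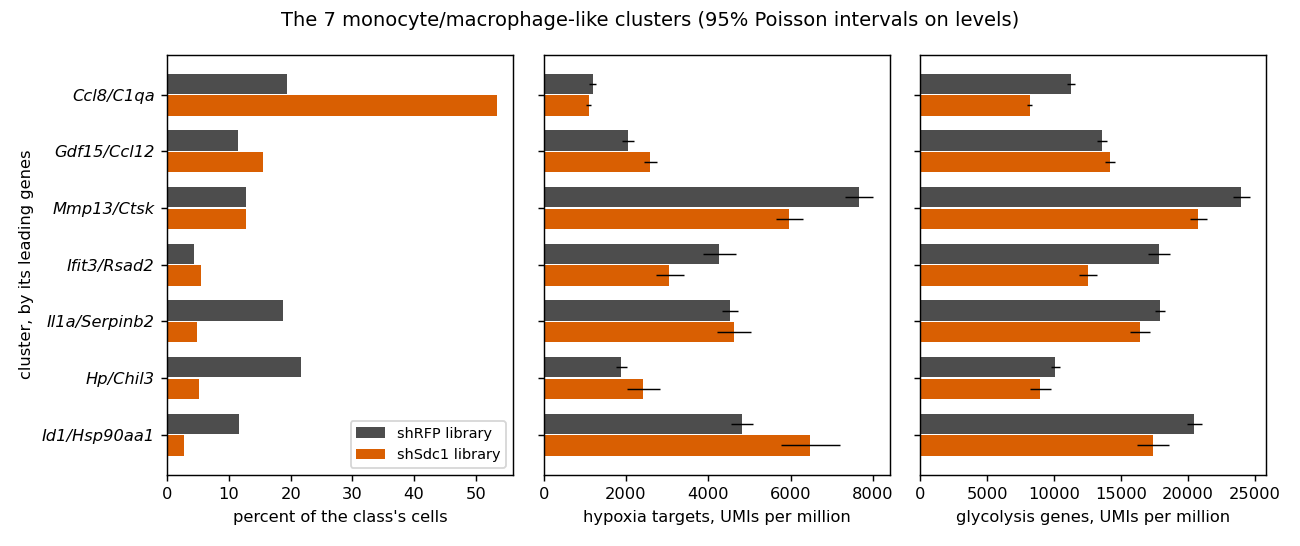
Share of the monocyte/macrophage-like class (left, percent of its cells), summed hypoxia targets (middle) and summed glycolysis genes (right, both in CPM with 95% Poisson intervals) in the 7 clusters of the shRFP (grey) and shSdc1 (orange) libraries. Ccl8/C1qa cells, with the lowest hypoxia bars, are 19.4% and 53.4% of the class, while the hypoxia bars differ in either direction and the orange glycolysis bar is the shorter one in 6 of 7 clusters.

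Single genes showed the same split. Vegfa (chromosome 17, 46016993 to 46032369, minus strand) was lower in the class (0.75) yet above 1 in all 7 clusters, from 1.01 [0.784 to 1.30] in Mmp13/Ctsk cells to 1.67 [1.06 to 2.54] in Id1/Hsp90aa1 cells, the only cluster whose interval was above 1. With equal weights its ratio was 1.25. Hilpda went from 224 to 493 CPM in Hp/Chil3 cells (2.20 [1.40 to 3.39]) and from 1123 to 1811 CPM in Id1/Hsp90aa1 cells (1.61 [1.26 to 2.05]), but from 1798 to 1261 CPM in Mmp13/Ctsk cells (0.701 [0.60 to 0.819]).

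Hif1a, Eno1 and Pgam1 were the members below 1 in all 7 clusters. Hif1a ratios ran from 0.361 [0.181 to 0.679] in Ifit3/Rsad2 cells and 0.492 [0.297 to 0.793] in Mmp13/Ctsk cells to 0.937 [0.633 to 1.35] in Il1a/Serpinb2 cells, with intervals below 1 in 3 clusters. Eno1 ran from 0.613 [0.514 to 0.730] in Ccl8/C1qa cells to 0.903 [0.628 to 1.27] in Id1/Hsp90aa1 cells. With equal weights Hif1a was at 0.727 and Eno1 at 0.755.

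Across all 18 clusters the summed levels of the 2 lists ran together, with a Spearman rank correlation of 0.909 in shRFP and 0.907 in shSdc1 over 18 clusters. The points of a library share its preparation and sequencing, and the clusters were made without either list. Hypoxia targets followed the median UMI count of a cluster only weakly, at 0.230 and 0.195.

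**Figure D4:**
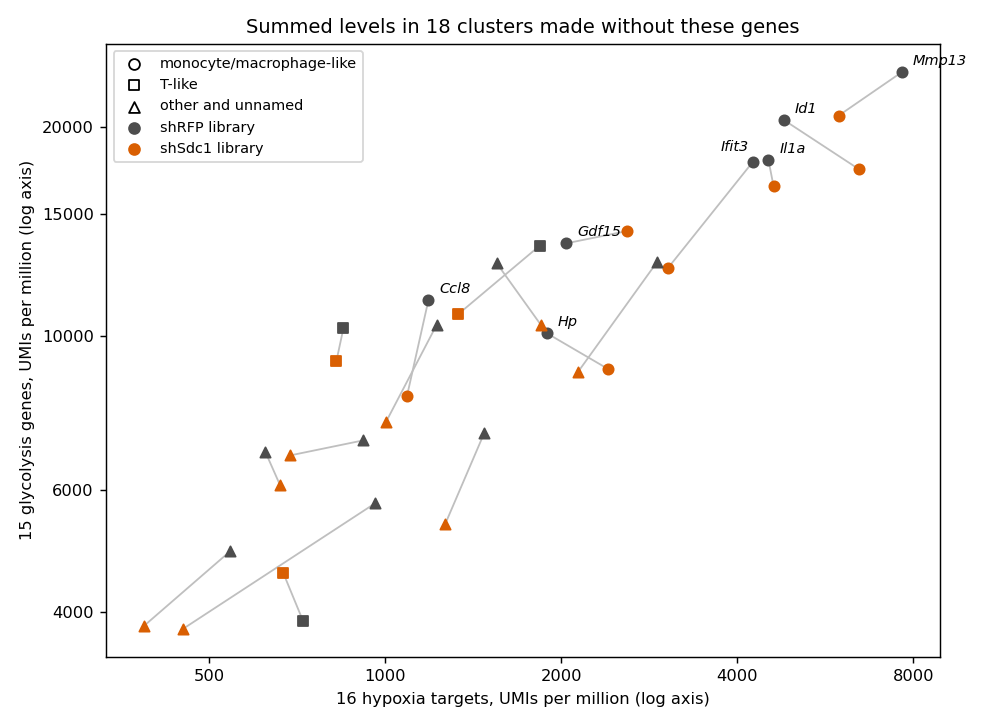
Summed CPM of 15 glycolysis genes against summed CPM of 16 hypoxia targets (both log axes) in 18 clusters, each drawn in the shRFP (grey) and shSdc1 (orange) library and joined by a line; circles are monocyte/macrophage-like, named by their first leading gene, squares T-like and triangles other clusters. Mmp13 macrophages stand at the upper right with 7657 and 23999 CPM in shRFP, and Ccl8 macrophages with 1187 and 11264 CPM.

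The link between the lists also held from cell to cell. Macrophages with at least 500 UMIs were thinned to 500 (2244 and 1639 cells; 653 and 758 had fewer and were dropped) and put in ranges by how many of these were hypoxia target UMIs. The levels in each range are from all UMIs of its cells, per 1000000 UMIs outside the hypoxia targets. Such ranges are parts of a score and not cell types, and 1 UMI more or less moves a cell across a border. At least 3 hypoxia UMIs were found in 24.8% [23.0 to 26.7] of shRFP cells and 16.7% [14.9 to 18.6] of shSdc1 cells. Inside clusters this share was lower in shSdc1 only in Mmp13/Ctsk (61.2% and 47.9%) and Ifit3/Rsad2 cells (35.2% and 27.3%). It was higher in the other clusters, by little in Ccl8/C1qa cells (3.85% and 4.28%) and by more in Gdf15/Ccl12 cells (10.7% and 18.8%). The part of the cluster mix in the class shares was not tested.

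Glycolysis genes were higher with the number of hypoxia UMIs in both libraries. In shRFP they stood at 11168 CPM in the 843 cells with 0 hypoxia UMIs, at 18439 CPM with 2 and at 24665 CPM in the 223 cells with 5 to 9. In shSdc1 the values were 8154 CPM in 768 cells, 15585 CPM and 25009 CPM in 81 cells. In the cells with 10 or more, shRFP reached 29765 CPM in 28 cells, and shSdc1 gave 21294 CPM [16858 to 26538] in only 6 cells.

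The shSdc1 cells held less glycolysis RNA in each range from 0 to 4 hypoxia UMIs, with intervals apart, and the libraries overlapped at 5 to 9. Intervals at 0 hypoxia UMIs were 10943 to 11397 CPM in shRFP and 7955 to 8358 CPM in shSdc1, at 3 to 4 they were 21012 to 22109 and 19252 to 20536 CPM, and at 5 to 9 they were 23960 to 25386 and 23826 to 26235 CPM. The mix of clusters also differed between the libraries, with Ccl8/C1qa cells at 31.9% of shRFP and 69.4% of shSdc1 cells with 0 hypoxia UMIs. In that range glycolysis was lower in shSdc1 inside every cluster but Gdf15/Ccl12 cells (11295 and 11644 CPM). The part of the mix in these differences was not tested. Within each of the 7 clusters, glycolysis rose over the ranges 0, 1 to 2 and 3 or more. This rise, counted by the order of the values, held in both libraries, in 14 of 14 cases. In Ccl8/C1qa cells of shSdc1, for example, glycolysis went from 6935 to 9892 and 19938 CPM, the last from 37 cells. Some ranges held under 20 cells, and some neighbouring intervals overlapped, as in Id1/Hsp90aa1 cells of shRFP. There they were 20009 to 21965 CPM at 1 to 2 and 21559 to 23678 CPM at 3 or more.

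Every glycolysis gene was higher at 5 to 9 hypoxia UMIs than at 0, by different amounts. Slc2a1 was 6.83-fold [5.24 to 8.94] higher in shRFP and 9.14-fold [5.92 to 14.0] in shSdc1. Pkm had the smallest ratio in shRFP, 1.69 [1.51 to 1.89], and stood at 2.54 [2.13 to 3.02] in shSdc1. The interval of Pfkl in shSdc1 alone included 1 (1.82 [0.745 to 3.86]). Gapdh was 2.02-fold and 2.85-fold higher, and Pgk1, the first ATP-yielding enzyme of the chain, 2.84-fold and 4.64-fold.

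Other pathways differed along the same ranges, some the opposite way. From 0 to 5 to 9 hypoxia UMIs the respiratory chain genes went from 5467 to 3711 CPM in shRFP and from 5829 to 4041 CPM in shSdc1, and proliferation genes from 1129 to 170 CPM and from 1426 to 403 CPM. Other hypoxia genes went from 5663 to 14566 CPM and from 5392 to 16106 CPM, and Hif1a from 163 to 378 CPM and from 73.3 to 224 CPM. Stress genes went from 10845 to 12564 CPM in shRFP and, over a wider span, from 4926 to 11170 CPM in shSdc1. The mix of clusters shifts along the ranges, with Mmp13/Ctsk cells at 2.85% of shRFP cells with 0 hypoxia UMIs and 36.8% of those with 5 to 9.

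**Figure D5:**
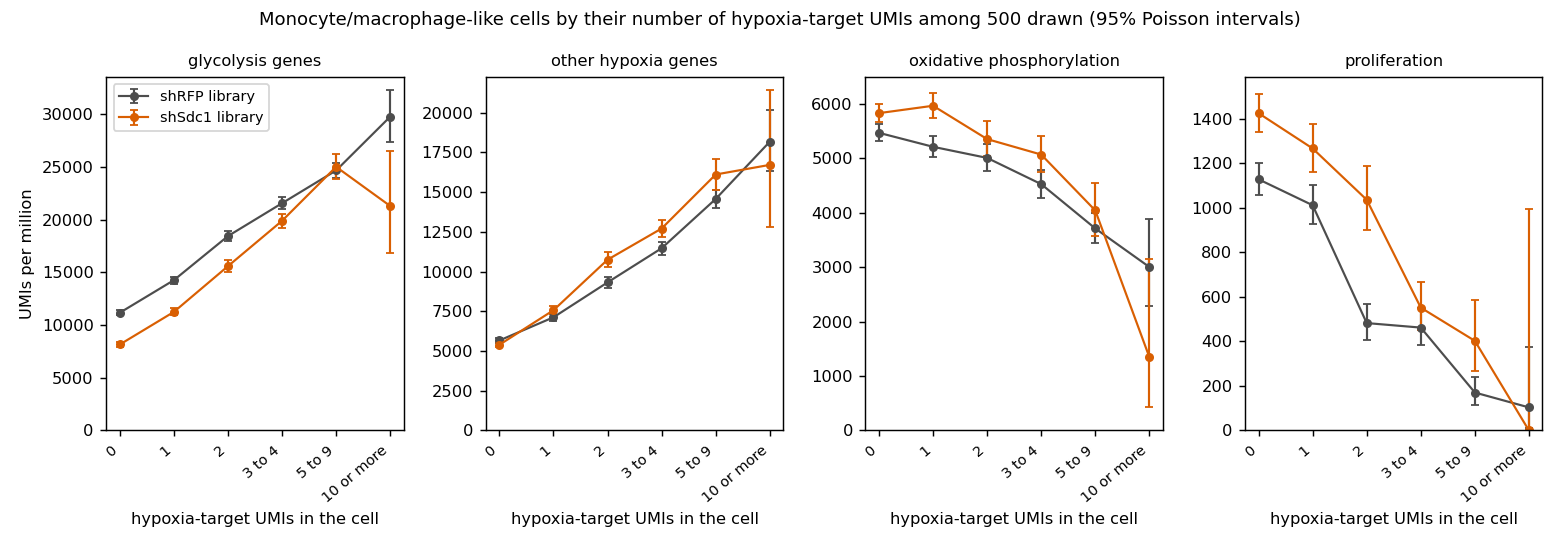
Summed CPM of 4 gene lists (with 95% Poisson intervals) in monocyte/macrophage-like cells, by the number of hypoxia target UMIs among 500 drawn from the cell (levels from all UMIs of the cells, per 1000000 outside the hypoxia targets), in the shRFP (grey) and shSdc1 (orange) libraries. Glycolysis and other hypoxia genes climb from 0 to 5 to 9 UMIs while respiratory chain (oxidative phosphorylation) and proliferation genes drop; the last orange point rests on 6 cells.

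In T-like cells the summed lists differed little between the libraries. Glycolysis genes were at 9879 and 9501 CPM, a ratio of 0.962 [0.931 to 0.994], and hypoxia targets at 1206 and 1056 CPM, a ratio of 0.876 [0.796 to 0.965]. Of 30 measured genes, 2 were higher, Hk2 (12.4 and 27.2 CPM, 2.18 [0.936 to 5.91]) and P4ha1 (35.5 and 59.0 CPM, 1.66 [0.991 to 2.90]), and 2 lower, Egln3 (24.9 and 15.0 CPM, 0.603 [0.276 to 1.33]) and Ankrd37 (47.9 and 30 CPM, 0.625 [0.363 to 1.08]). All 4 intervals include 1, and 1 cell held 31.0% of the 29 Hk2 UMIs of shSdc1. Among all 7666 measured genes 12.8% were higher and 7.55% lower. P4ha1 lost its 1.5-fold difference under 5 alternatives, among them a minimum of 500 genes per cell (0.617), thinning (0.990) and doublets kept (1.41), and Ankrd37 at a coarser clustering (0.931).

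Hif1a went the other way from macrophages, from 375 CPM [326 to 429] to 473 CPM [432 to 516] in T-like cells, a ratio of 1.26 [1.07 to 1.49]. It was most abundant in regulatory-like T cells, at 846 CPM [694 to 1020] and 843 CPM [738 to 959] with a ratio of 0.997 [0.791 to 1.26]. Cycling-like cells held 306 and 415 CPM (1.35 [0.970 to 1.93]), CD8-like cells 240 and 299 CPM (1.24 [0.815 to 1.94]) and naive-like cells 150 and 157 CPM (1.04 [0.491 to 2.15]). Each of these ratio intervals includes 1. In shRFP the level intervals of neighbours among the last 3 overlapped, while that of regulatory-like cells stood apart from all 3. Regulatory-like cells were 302 in shRFP and 623 in shSdc1, naive-like cells 372 and 233, and with T-like clusters weighted equally the class ratio of Hif1a was 1.12.

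Glycolysis differed widely among the T cell subsets. In shRFP it was lowest in naive-like cells (3663 CPM [3352 to 3994]), then CD8-like (9129 CPM [8615 to 9666]), regulatory-like (12593 CPM [11988 to 13221]) and cycling-like cells (13860 CPM [13264 to 14476]). In shSdc1 the order was the same, with 4490, 8122, 9657 and 11490 CPM. Between the libraries it was lower in regulatory-like (0.767 [0.721 to 0.816]), cycling-like (0.829 [0.787 to 0.874]) and CD8-like cells (0.890 [0.829 to 0.955]) and higher in naive-like cells (1.23 [1.07 to 1.40]). The class ratio of 0.962 thus joins subsets that differed in both directions. Cycling-like cells were also the deepest, with sub-cluster medians between 900.5 and 1195 UMIs.

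Several members had intervals below 1 in regulatory-like T cells, which restrain other immune cells; they are named after their values were seen. Eno1 went from 605 to 361 CPM (0.597 [0.439 to 0.814]), Ldha from 1451 to 1000 CPM (0.690 [0.570 to 0.835]) and Aldoa, which splits fructose bisphosphate, from 1606 to 1201 CPM (0.748 [0.627 to 0.894]). Ddit4 went from 466 to 215 CPM, a ratio of 0.463 [0.317 to 0.674], and stood at 93.0 and 98.4 CPM in CD8-like cells. Hypoxia targets as a whole went from 1854 to 1387 CPM in regulatory-like cells (0.748 [0.635 to 0.883]), and stress genes of the same cells were at 0.569 [0.521 to 0.621]. T-like cells of shRFP also held more macrophage marker RNA, with 1682 CPM of 33 markers against 1139 CPM in shSdc1, of which 32 were detected; its part in these values was not tested.

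Dendritic and B cells showed lower glycolysis in shSdc1 as well. Conventional DC 2-like cells went from 10369 to 7522 CPM (0.725 [0.683 to 0.770]), migratory DC-like cells from 7248 to 5362 CPM (0.740 [0.663 to 0.826]) and B and plasma-like cells, with 116 and 81 cells, from 5735 to 3781 CPM (0.659 [0.559 to 0.777]). Conventional DC 1-like cells were at 6805 and 6097 CPM (0.896 [0.826 to 0.972]) and NK-like cells at 7068 and 6723 CPM (0.951 [0.835 to 1.09]). Neutrophil-like cells (35 and 26) were at 12766 and 8854 CPM (0.694 [0.551 to 0.868]) and plasmacytoid DC-like cells (26 and 34) at 4892 and 3821 CPM, with an interval that includes 1. Hypoxia targets of these classes rested on at most 380 UMIs per library, with ratios from 0.469 [0.294 to 0.739] in B and plasma-like cells to 1.06 [0.815 to 1.38] in conventional DC 1-like cells. A cluster without a name, led by Retnla, Lyz1, Ear2 and Clec4b1, had 12715 and 10354 CPM of glycolysis genes (0.814 [0.766 to 0.866]) but 1552 and 1849 CPM of hypoxia targets (1.19 [1.01 to 1.40]).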

How the data were processed

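Raw counts of UMIs per gene in each barcode were deposited; per the file headers the authors used Cell Ranger 6.1.1, and build mm10 per the submitters' processing notes. Which annotation they used is not given; positions come from GENCODE M21, which holds 99.5% of the features. Barcodes with at least 200 genes and under 10% mitochondrial UMIs were kept. Scrublet's automatic threshold marked too few barcodes to have worked, so the highest scores were removed at 0.8% per 1000 deposited barcodes (242 and 263).

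Both libraries were clustered with scanpy 1.11.5 (2000 variable genes, 30 components, 15 neighbours, Leiden resolution 1). Clusters were named by markers (best mean log2 fold at least 1, at least 3 markers at 2-fold, top 10 genes not led by another class; 0.5 for T sub-clusters), a rule chosen with the data in view. Members, lists and alternatives were chosen with earlier results of these data known. Named genes are the 32 members and other listed genes past 1.5-fold, first those with at least 50 UMIs. A result for 1 other listed gene is not reported here. Intervals are exact Poisson (levels), conditional binomial (ratios) and Clopper-Pearson (shares). No test between libraries was possible. The ratio script was tested on simulated data. Alternatives were other filters, clusterings, scalings (edgeR 4.0.16 TMM, median of ratios), thinning and equal cluster weights.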

Additional observations from a re-analysis of the deposited data

Results flagged for a closer look

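Hif1a moved in opposite directions in the 2 main classes, with a ratio, shSdc1 over shRFP, of 0.473 in the monocyte/macrophage-like class against 1.26 in the T-like class. In every named T subset the interval of the ratio included 1, from 0.997 [0.791 to 1.26] in regulatory-like to 1.35 [0.970 to 1.93] in cycling-like cells. Regulatory-like cells, which had the highest level, were 302 in shRFP and 623 in shSdc1. The difference between the classes was not tested, since each group is 1 library. The macrophage ratio was between 0.435 and 0.727 and the T-like ratio between 1.12 and 1.42 under the alternatives.

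The barcodes left out for having under 200 genes (530 in shRFP and 276 in shSdc1) held the 2 lists at levels that differed the other way from the kept cells. Glycolysis genes were at 6647 and 8904 CPM (1.34 [1.21 to 1.49]), and hypoxia targets went from 1939 CPM in shRFP to 3198 CPM in shSdc1 (1.65 [1.37 to 1.98]). These barcodes held 250 and 222 hypoxia target UMIs and were not assigned to cell types.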

How the results depend on the processing

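No paired analysis was possible because each group has 1 library. Of 801 alternative values, 664 stayed within the counting interval of the reported value or, for a count, within 1.5 times, 134 moved and 3 turned the direction of a gene past 1.5-fold. These were Hilpda in macrophages with clusters weighted alike (1.02) and P4ha1 in T-like cells with at least 500 genes per cell (0.617) or thinned to 500 UMIs (0.990).

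Ratios of summed glycolysis genes over all cells were 0.795 with at least 500 genes, 0.680 with TMM, 0.685 with median-of-ratios scaling, 0.728 thinned and 0.845 with clusters weighted alike; of hypoxia targets, in the same order, 0.708, 0.605, 0.610, 0.628 and 0.968. In macrophages glycolysis gave 0.733 with doublets kept, 0.80 with 500 genes, 0.773 under 5% mitochondrial UMIs, 0.709 (TMM), 0.694 (median of ratios), 0.732 (thinned) and 0.854 (weighted alike), and hypoxia targets 0.679 with doublets kept, then 0.673, 0.659, 0.671 and 0.998 for the last 4. In T-like cells glycolysis gave 0.815 with 500 genes, 0.794 at Leiden resolution 0.5, 0.926 (median of ratios), 0.887 (thinned) and 0.859 (weighted alike), and hypoxia targets 0.724 at resolution 0.5 and 0.791 thinned. At resolution 0.5 only 414 and 842 cells were T-like, and with 500 genes 88 and 227.

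With clusters weighted alike, 0 members were lower by 1.5-fold over all cells (11 reported) and 0 in macrophages (10 reported), while the other alternatives gave 10 to 13 and 9 to 15; Slc2a1 (0.689) and Slc16a3 (0.684) also missed the mark with 500 genes. Members higher were 1 over all cells with 500 genes or thinned and 1 in macrophages with 500 genes (0 reported). In T-like cells (2 higher, 2 lower reported) 1 was higher with doublets kept or thinned and 0 with 500 genes or a minimum of 100 UMIs, and 4 were lower at resolution 0.5 or thinned and 0 with 100 UMIs. The other scalings shifted all log2 ratios by -0.14 (TMM) and -0.13 (median of ratios) over all cells and by -0.09 and -0.12 in macrophages. Depth limits genes with few UMIs, as the intervals show.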

Other observations

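Proliferation genes were higher in the shSdc1 library where the glycolysis genes were lower. Over all cells they stood at 1113 CPM [1080 to 1147] in shRFP and 1846 CPM [1805 to 1889] in shSdc1, a ratio of 1.66 [1.60 to 1.72], and 10 of 14 were higher, among them Top2a, which untangles replicated DNA (2.36 [2.05 to 2.73]), Mki67, the gene of the Ki-67 antigen (2.01 [1.76 to 2.30]), and Mcm6 of the replicative helicase (1.96 [1.65 to 2.35]). In monocyte/macrophage-like cells the ratio was 1.44 [1.36 to 1.54], with 5 of 14 higher, and in T-like cells 1.41, with 4 of 14 higher. Within the 7 macrophage clusters the ratio ran from 0.752 [0.651 to 0.868] in Gdf15/Ccl12 cells to 1.17 [0.635 to 2.04] in Id1/Hsp90aa1 cells, with no interval above 1. Ccl8/C1qa cells, which had the highest levels (1783 and 1650 CPM), were 19.4% and 53.4% of the class. In the named T subsets it ran from 0.948 [0.822 to 1.10] in CD8-like cells to 1.28 [1.07 to 1.55] in regulatory-like cells. Genes that respond to amino acid shortage or unfolded protein summed to a ratio of 0.699 [0.665 to 0.736] in macrophages and 0.963 [0.858 to 1.08] in T-like cells.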
